A study of Homo sapiens with 6 samples.

Results

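The 10 genes described here are the core of the circadian clock and were taken from the count table by their symbols: ARNTL, CLOCK, PER1, PER2, PER3, CRY1, CRY2, NR1D1, NR1D2 and DBP. All 10 were found among 59608 genes, and all 10 had enough reads to be tested. The libraries came from HepG2, a long-established line of human liver cancer cells, in which endogenous VEZF1, a zinc finger transcription factor, had been silenced with a lentivirus-encoded guide RNA. Either the wild-type protein (VEZF1-WT) or VEZF1-2A was then re-expressed, with 3 libraries of each form. In VEZF1-2A a pair of serines reported to carry O-GlcNAc, a single-sugar modification of proteins in the nucleus and cytoplasm, is replaced by alanine. Further potential sites named by the authors are unchanged in it. Both groups therefore share the silencing of the endogenous gene and the expression of an introduced one, and no library without re-expressed VEZF1 was analysed here. The labels state neither an hour of harvest nor a synchronising treatment, and do not say whether the silenced cells were a single clone or whether the replicates were separate cultures, so that the p-values measure only the spread between these libraries.

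The clock is a loop of transcription and repression that runs with a period of about a day. ARNTL (also called BMAL1) and CLOCK pair on DNA elements named E-boxes and switch on the PER and CRY genes, whose proteins return to the nucleus and inhibit the pair. The same pair switches on NR1D1 and NR1D2, which encode the nuclear receptors REV-ERBα and REV-ERBβ, and these repress ARNTL through elements shared with the activating ROR receptors. In synchronised tissue, liver included, NR1D1, NR1D2, DBP and the PER genes peak at roughly the opposite time of day to ARNTL. In liver the loop times genes of lipid, bile acid and drug metabolism, in part through DBP, an activator that binds D-boxes.

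The promoters of ARNTL, PER1 and NR1D2 are shown because, of the 6 phase-opposed genes compared with ARNTL, PER1 had the highest and NR1D2 the lowest correlation with it. Each is the RefSeq window (GRCh38.p14) from 250 bases before to 50 bases after an annotated start, 5′ to 3′ on the gene's strand. Capitals mark an E-box (CACGTG), a D-box (TTATGTAA or TTACGTAA) or a ROR and REV-ERB half-site (AGGTCA), each on either strand. ARNTL is read at chr11:13277540-13277839 on the plus strand, PER1 at chr17:8152355-8152654 on the minus strand, and NR1D2 at chr3:23945871-23946170 on the plus strand. ARNTL and NR1D2 each have a further window, at chr11:13276402-13276701 and chr3:23945036-23945335, in which none of these motifs was found. For both genes the window with motifs is the one shown.
ARNTL: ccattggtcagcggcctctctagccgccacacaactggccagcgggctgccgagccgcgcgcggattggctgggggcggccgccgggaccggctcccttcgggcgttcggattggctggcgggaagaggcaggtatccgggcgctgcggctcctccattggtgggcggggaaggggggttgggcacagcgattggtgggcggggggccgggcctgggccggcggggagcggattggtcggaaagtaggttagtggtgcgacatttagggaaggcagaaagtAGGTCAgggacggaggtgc
PER1: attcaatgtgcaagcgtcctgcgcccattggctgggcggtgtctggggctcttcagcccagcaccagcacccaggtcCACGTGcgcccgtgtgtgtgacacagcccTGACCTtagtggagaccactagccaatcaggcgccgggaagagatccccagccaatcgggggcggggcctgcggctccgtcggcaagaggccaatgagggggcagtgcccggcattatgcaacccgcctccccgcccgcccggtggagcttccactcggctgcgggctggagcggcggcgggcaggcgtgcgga
NR1D2: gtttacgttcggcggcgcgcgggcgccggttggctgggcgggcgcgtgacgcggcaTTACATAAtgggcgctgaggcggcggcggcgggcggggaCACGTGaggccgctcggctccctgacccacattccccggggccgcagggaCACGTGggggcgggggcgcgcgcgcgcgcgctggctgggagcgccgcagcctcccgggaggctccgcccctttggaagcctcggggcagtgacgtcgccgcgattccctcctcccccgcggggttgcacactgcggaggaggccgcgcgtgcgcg

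In the PER1 window an E-box began at position −173 from the start and a half-site at −144. The NR1D2 window held a pair of E-boxes, at −155 and −105, and a D-box at −194. The half-site of the ARNTL window began at base 32 of the transcript. RefSeq windows were at hand for 10 of 10 genes, 15 windows in all. CACGTG was in 2 of the 15 windows (PER1 and NR1D2) and in 7.26% of 35116 promoters of the same length. The variant CACGTT was in 5 of 15 windows (CLOCK, PER2, CRY1, CRY2 and NR1D1) and in 5.34% of all promoters. A D-box was in 3 of 15 windows (PER2, PER3 and NR1D2) and in 1.01% of all promoters. The half-site was in 4 of 15 windows (ARNTL, PER1 and both of CRY2) and in 13.8% of all promoters. Neither TGACGTCA, the cyclic AMP response element (1.85% of all promoters), nor a run of 7 G (5.1%) was found in the 15 windows. The motifs did not overlap one another in these windows, and a match of letters is a description and not a measured site.

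Total counts ranged from 28756765 to 57199396 per library. VEZF1 itself, the targeted gene, had a level of 48.2 ± 9.94 CPM (the read count scaled to library size; SD, n = 3) with VEZF1-WT and of 44.5 ± 5.06 CPM (n = 3) with VEZF1-2A, and the groups overlapped. Reads of the endogenous and the introduced gene cannot be told apart in these counts, so this is no check of the labels. All 8 hepatocyte markers were present, with a summed level of 14973 to 18807 CPM in VEZF1-WT and 14391 to 18335 CPM in VEZF1-2A. The 8 markers of leukocytes, endothelium and fibroblasts summed to 117 to 176 CPM in VEZF1-WT and 122 to 191 CPM in VEZF1-2A. CD68, a lysosomal protein gene, made up most of this sum at 112 to 185 CPM, while PTPRC reached at most 0.121 CPM and DCN was at 0 in 5 of 6 libraries. The libraries numbered 3 stood apart from the rest of their groups in AFP, the fetal liver protein gene, which was at 3640 and 3479 CPM against 1761 to 2063 CPM in the other 4.

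The question of the group comparison was whether clock genes differed between cells with VEZF1-WT and with VEZF1-2A. No difference was detected: the quasi-likelihood test of edgeR, adjusted over 19111 genes by the Benjamini-Hochberg method, gave an adjusted p = 0.9996 for each of the 10. The adjusted threshold of 0.05 was passed by 0 of the 10 and by 0% of all genes tested. An unadjusted p-value under 0.05 was reached by 0 of 10 clock genes and by 2.13% of all genes. Values of the groups overlapped for all 10, whereas they did not for 7.36% of all genes. Of the 10, 5 were higher in VEZF1-WT and 5 lower, while 50.1% of all genes were higher. The median log2 fold change of the 10 was −0.0034 and the median of its absolute value was 0.04, against 0.00035 and 0.07 over all genes. Fold changes below are VEZF1-WT over VEZF1-2A, on a log2 scale, from edgeR, and are followed by a 95% interval of the same fit and the p-value of a two-sided exact permutation test of log2(CPM + 0.1), in which 3 libraries against 3 cannot give less than 0.1. In these bulk libraries, fewer cells with a transcript and less of it in each cell cannot be told apart, and neither can cells at opposite phases and cells without a rhythm.

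**Figure D1:**
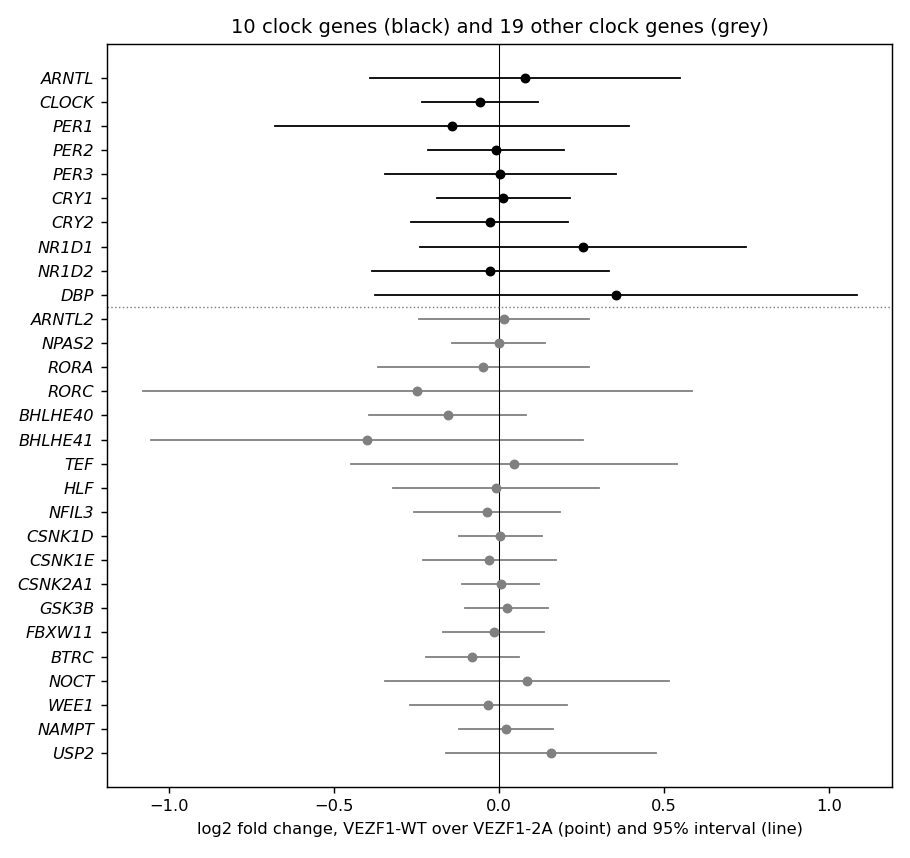
Log2 fold change of VEZF1-WT over VEZF1-2A (points, horizontal axis) with its 95% interval (lines) for the 10 clock genes (black) and 19 other clock genes (grey), from edgeR on 3 libraries of each form. Every interval spans 0, and the lines are shortest for abundant genes such as CLOCK and longest, among the 10, for DBP (−0.38 to 1.08).

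Of the activators, CLOCK was abundant and ARNTL was not. ARNTL (chr11:13276652-13387266, plus strand) had 2.76, 2.13 and 3.24 CPM in VEZF1-WT and 2.09, 2.42 and 3.25 CPM in VEZF1-2A. Each group held both low and high libraries, and the highest value of both groups was in replicate 3. The fold change was 0.08 (SE 0.21, exact p = 0.8, interval −0.39 to 0.55). CLOCK (chr4:55427903-55546909, minus strand), whose protein also acetylates histones, had 25.3, 29.7 and 26.3 CPM in VEZF1-WT and 29.8, 27.9 and 26.9 CPM in VEZF1-2A. Its libraries differed by no more than 1.18-fold and the groups overlapped, with a fold change of −0.06 (SE 0.08, exact p = 0.5, interval −0.23 to 0.12). The interval holds changes in CLOCK down to 0.850-fold and up to 1.08-fold.

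Of the PER genes, the repressors of the negative limb, PER1 varied most among the libraries and PER2 least. PER1 (chr17:8140472-8156506, minus strand), an early responder to light and to glucocorticoids, had 2.45, 1.63 and 2.57 CPM in VEZF1-WT and 2.06, 2.05 and 3.31 CPM in VEZF1-2A. Its lowest and highest libraries, VEZF1-WT replicate 2 and VEZF1-2A replicate 3, were 2.04-fold apart, and the fold change between groups was −0.14 (SE 0.24, exact p = 0.6, interval −0.68 to 0.39). PER2 (chr2:238244044-238290102, minus strand), the scaffold on which CRY and the casein kinases assemble, had 14.4, 14.1 and 15.8 CPM in VEZF1-WT and 14.7, 16.3 and 13.7 CPM in VEZF1-2A. The VEZF1-2A values spanned those of VEZF1-WT, and the fold change was −0.01 (SE 0.09, exact p = 1, interval −0.22 to 0.20). PER3 (chr1:7784320-7845177, plus strand), the least essential of the PER genes for rhythm, had 3.97, 3.98 and 5.60 CPM in VEZF1-WT and 4.39, 4.79 and 4.40 CPM in VEZF1-2A. Replicate 3 of VEZF1-WT stood above the other 5 libraries, and the fold change was 0.0033 (SE 0.16, exact p = 1, interval −0.35 to 0.35). Without that library the 2 remaining VEZF1-WT values lay below all of VEZF1-2A, with a fold change of −0.19 (adjusted p = 0.9994, edgeR). In that run the groups were separate for 17.3% of all genes.

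The cryptochromes, which bind the CLOCK and ARNTL pair and block it, varied little, and CRY2 was the steadiest of the 10 genes. CRY1 (chr12:106991364-107093549, minus strand) had 19.5, 22.9 and 20.7 CPM in VEZF1-WT and 22.4, 18.7 and 21.5 CPM in VEZF1-2A. The groups covered nearly the same range, and the fold change was 0.01 (SE 0.09, exact p = 0.9, interval −0.19 to 0.21). CRY2 (chr11:45847118-45883248, plus strand) had 5.19, 5.33 and 5.35 CPM in VEZF1-WT and 5.59, 5.29 and 5.33 CPM in VEZF1-2A. All 6 libraries were within 1.08-fold of each other, and the fold change was −0.03 (SE 0.11, exact p = 0.5, interval −0.27 to 0.21).

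NR1D1 and DBP had the largest fold changes of the 10 but also wide intervals, while NR1D2, the other REV-ERB gene, had nearly equal means. NR1D1 (chr17:40092793-40100589, minus strand) had 2.64, 2.30 and 2.68 CPM in VEZF1-WT and 2.85, 2.12 and 1.48 CPM in VEZF1-2A. VEZF1-2A held both the highest and the lowest value, the latter from 49 reads in replicate 3, and the fold change was 0.25 (SE 0.22, exact p = 0.4, interval −0.24 to 0.75). This value rested on single libraries. It was 0.49 without replicate 1 of VEZF1-2A, past the unadjusted threshold (adjusted p = 0.9994, edgeR), as were 472 of 19817 genes in that run. It was 0.05 without replicate 3 of VEZF1-2A. NR1D2 (chr3:23945286-23980617, plus strand) had 4.43, 4.04 and 3.19 CPM in VEZF1-WT and 4.32, 4.09 and 3.44 CPM in VEZF1-2A. Both groups had the same order, with replicate 1 highest and replicate 3 lowest, and the fold change was −0.03 (SE 0.16, exact p = 0.9, interval −0.39 to 0.33). DBP (chr19:48630030-48637379, minus strand) had 0.675, 0.729 and 1.24 CPM in VEZF1-WT and 0.891, 0.649 and 0.573 CPM in VEZF1-2A. Replicate 3 of VEZF1-WT, with 70 reads, was the highest and replicate 3 of VEZF1-2A, with 19, the lowest. The fold change of DBP, 0.35, was the largest of the 10 and had the widest interval (SE 0.33, exact p = 0.5, interval −0.38 to 1.08), which holds levels in VEZF1-WT from 0.770-fold to 2.12-fold of those in VEZF1-2A. It too rested on single libraries, being 0.0026 without replicate 3 of VEZF1-WT and 0.54 without replicate 1 of VEZF1-2A.

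Some reads may belong to neighbours, since the table counts genes whose exons share positions and the strand setting is not given in the sources used here. NR1D1 shares 473 bases (18.0% of its exons) with THRA, a thyroid hormone receptor gene on the opposite strand that had 3323 reads against 575 for NR1D1 over the 6 libraries. DBP shares 661 bases (10.2%) with SPHK2, which had 1317 reads against 199. PER3 shares 10.7% with UTS2 and 5.95% with Z98884.1. The shares were 2.74% for PER2 with AC012485.1, 1.97% for CRY1 with AC078929.1, 1.11% for PER1 with MIR6883 and 0.428% with AC129492.3, and 0.659% for CLOCK with TMEM165. ARNTL, CRY2 and NR1D2 shared none.

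Levels of different genes were compared per kilobase of exon, as CPM divided by exon length in kilobases (RPKM), since their transcripts differ in length. The length counts every annotated exon base of a gene, 6485 for DBP (chr19:48630030-48637379), and may exceed that of the transcripts present. Ranks and ratios between genes depend on it. CRY1 had the highest level, 4.38 ± 0.338 RPKM (SD, n = 6), followed by CLOCK (2.40 ± 0.160) and PER2 (2.16 ± 0.148). NR1D1 (0.891 ± 0.190), CRY2 (0.863 ± 0.0211), NR1D2 (0.676 ± 0.0857) and PER3 (0.558 ± 0.0755) formed the middle of the order. ARNTL (0.382 ± 0.0754), PER1 (0.335 ± 0.0830) and DBP (0.122 ± 0.0376) were lowest. Neighbours in this order whose ranges overlapped were CLOCK and PER2, NR1D1 and CRY2, NR1D2 and PER3, and ARNTL and PER1. The other 5 neighbouring pairs had the same order in 6 of 6 libraries with no overlap.

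**Figure D2:**
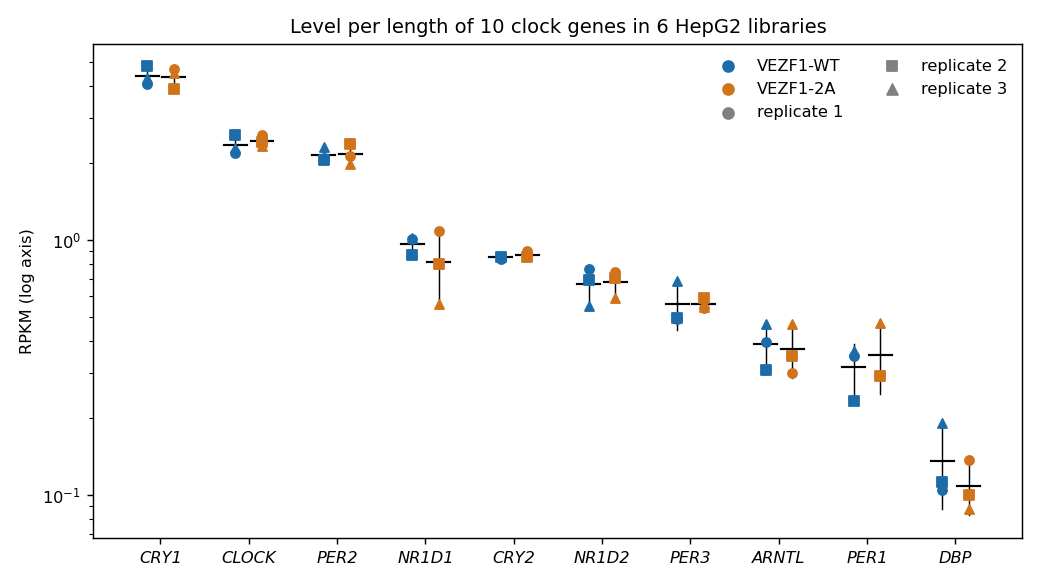
Level of each clock gene in RPKM (CPM per kilobase of exon, log axis) in 6 HepG2 libraries, with VEZF1-WT in blue and VEZF1-2A in orange, replicates by shape, the group mean as a horizontal bar and its SD (n = 3) as a vertical line. The order runs from CRY1 (4.38 on average) to DBP (0.122), and the colours overlap for every gene.

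CRY1 and PER2 were the highest of their families by the ratio of per-length levels within a library. CRY1 was 4.59 to 5.57 times as high as CRY2, and PER2 was 4.21 to 8.82 times as high as PER1 and 3.33 to 4.29 times as high as PER3, in 6 of 6 libraries. CLOCK was 4.88 to 8.57 times as high as ARNTL, its partner. NR1D1 was above NR1D2 in 5 of 6 libraries, at ratios of 0.947 to 1.85, with VEZF1-2A replicate 3 the exception. The paralogs of the activators were higher than the activators themselves. ARNTL2 was 4.53 to 9.21 times as high as ARNTL, and NPAS2, which can stand in for CLOCK, was 1.47 to 1.70 times as high as CLOCK. By this measure, which rests on the annotated exon length, DBP was exceeded by the other listed factors that bind D-boxes. HLF, a relative of DBP enriched in liver, was 88.4 to 191 times as high, NFIL3, a repressor at the same element, 72.1 to 178 times, and TEF 2.55 to 5.94 times.

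Of 22 other clock genes listed, 19 could be tested, 8 higher in VEZF1-WT and 11 lower. None had an unadjusted p-value under 0.05, against 2.13% of all genes, their median log2 fold change was −0.0096, and they ranged from −0.40 (BHLHE41) to 0.16 (USP2). With the replicate number as a block, 1 of the 19 passed the unadjusted threshold, as did 4.32% of all genes. This was BHLHE40, a repressor that competes for E-boxes, with a fold change of −0.16 (adjusted p = 0.9993, edgeR), which was lower in VEZF1-WT in each of the 3 same-numbered pairs. Groups did not overlap for 1 of the 19 and for 7.36% of all genes. The gene was BTRC, an F-box protein that directs PER proteins to degradation. It had 24.0, 24.2 and 23.1 CPM in VEZF1-WT and 25.4, 24.8 and 25.3 CPM in VEZF1-2A, a fold change of −0.08 (SE 0.06, exact p = 0.1, the smallest possible). Per length, the most abundant gene was NPAS2 (3.87 RPKM) among activator paralogs, RORA (0.268) among ROR receptors, BHLHE40 (15.5) among further repressors, HLF (14.2) among D-box factors, CSNK1D (8.17) among kinases and NAMPT (6.62) among clock outputs. CSNK2A1 had more CPM than CSNK1D (127 against 90.2 on average with VEZF1-WT) but 29523 exon bases against 11024. Exons are shared here too, such as 12.8% of BHLHE40 with BHLHE40-AS1 and 11.4% of CSNK1D with AC132872.4. RORB and CIART had too few reads to be tested, and FBXL21 was not listed under that symbol.

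The phase-opposed genes were then compared with ARNTL within each library, as log2 ratios of CPM + 0.1, which depend little on the scaling. The log2 ratio of NR1D1 to ARNTL was −0.07, 0.10 and −0.27 with VEZF1-WT, and 0.43, −0.18 and −1.09 with VEZF1-2A. It covered a 2.86-fold range, the widest of the 6 ratios, and both ends of it were VEZF1-2A libraries. The ratio of NR1D2 to ARNTL was 0.66, 0.89 and −0.02 with VEZF1-WT, and 1.01, 0.73 and 0.08 with VEZF1-2A, over a 2.05-fold range. In each group replicate 3 was the lowest. The ratio of DBP was −1.89, −1.43 and −1.32 with VEZF1-WT, and −1.14, −1.75 and −2.32 with VEZF1-2A, over a 2.26-fold range, with no common order of the replicates. Those of PER1, PER2 and PER3 covered smaller ranges of 1.32-fold, 1.64-fold and 1.53-fold. Between groups the mean log2 ratio, VEZF1-WT minus VEZF1-2A, was 0.21 for NR1D1, −0.10 for NR1D2, 0.19 for DBP, −0.21 for PER1, −0.08 for PER2 and −0.09 for PER3. None of these differences passed the test (two-sided exact permutation tests, p from 0.2 to 0.8, adjusted p = 0.8 for all 6). The ratio of PER1 was lower in VEZF1-WT in 3 of 3 same-numbered pairs, for which an exact sign-flip test gave p = 0.25, the smallest that 3 pairs allow, and the other 5 ratios moved in both directions among the pairs (p = 0.75 each).

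**Figure D3:**
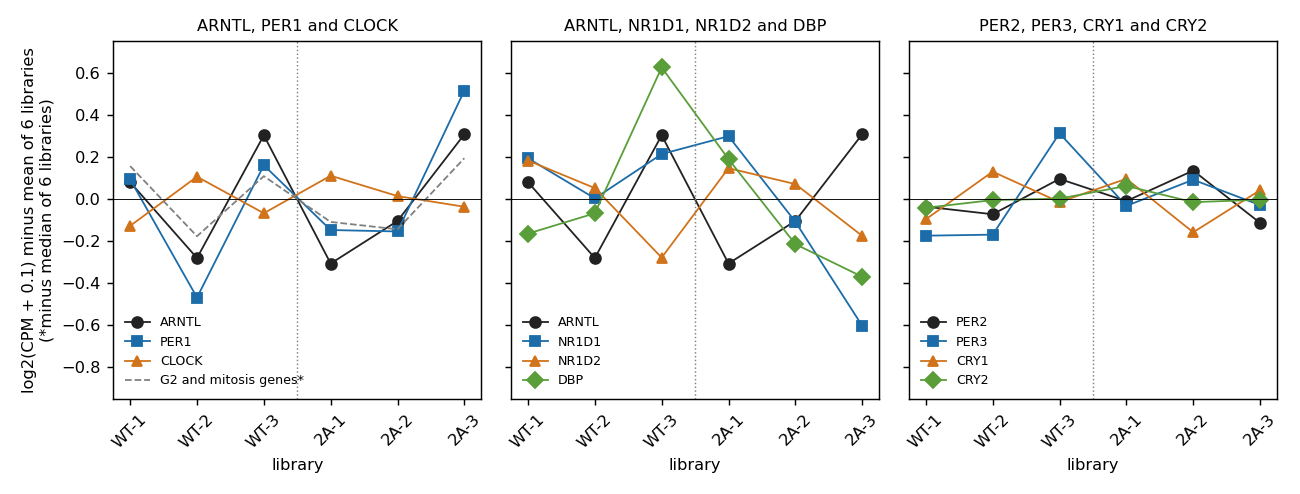
Log2(CPM + 0.1) of each clock gene minus its mean over 6 libraries (vertical axis), by library (horizontal axis), with the dotted line between VEZF1-WT and VEZF1-2A. The dashed grey line is the mean log2 CPM of 10 genes of G2 and mitosis minus its median. ARNTL and PER1 are high in VEZF1-WT replicates 1 and 3 and VEZF1-2A replicate 3, where CLOCK is low.

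Over the 6 libraries PER1 followed ARNTL rather than opposing it. Pearson's r of log2(CPM + 0.1) was 0.88 (exact permutation p = 0.0139, adjusted over the 6 pairs 0.0833) and Spearman's rho was 0.83 (p = 0.0583, adjusted 0.35). The relation thus did not pass the adjusted threshold. Here and below, the permutation takes the 6 libraries as exchangeable, although those numbered 3 deviated from their group means together (correlation 0.57). Its p-values may therefore be too small. Pearson's r of PER1 with ARNTL was 0.95 after the group means were subtracted and 0.78 without the 2 libraries farthest from the ARNTL median, which were replicate 3 of each group. The libraries with the 3 highest ARNTL values, VEZF1-WT replicates 1 and 3 and VEZF1-2A replicate 3, also had the 3 highest PER1 values and the 3 lowest CLOCK values. They also had the highest mean log2 CPM of 10 genes of G2 and mitosis, which was 6.97, 6.64 and 6.92 for VEZF1-WT and 6.71, 6.67 and 7.01 for VEZF1-2A. The part of these genes in the relation of ARNTL and PER1 was not tested. Nor is a share of all genes that follow ARNTL as closely given here, so the relation is not shown to be particular to clock genes.

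Of the 6 phase-opposed genes NR1D2 had the most negative correlation with ARNTL, r = −0.75 (exact permutation p = 0.1, adjusted 0.3) and rho = −0.54 (p = 0.297, adjusted 0.597). CLOCK, the partner of ARNTL and not one of the 6, had a more negative r with ARNTL, −0.82, for which no test was run. The r of NR1D2 was −0.75 after group means were subtracted, but 0.51 without replicate 3 of both groups, so that the relation rested on those 2 libraries together. With any 1 library left out, r stayed between −0.95 and −0.62. NR1D1 had r = −0.41 (exact permutation p = 0.451, adjusted 0.677) and rho = −0.49 (p = 0.356, adjusted 0.597), and its r was −0.07 without the same 2 libraries. VEZF1-2A replicate 3 alone decided its sign, as r was 0.21 without it. DBP, whose r was 0.09 (exact permutation p = 0.922, adjusted 0.993; rho −0.37, p = 0.497, adjusted 0.597), had r = −0.71 without both libraries and −0.85 without VEZF1-WT replicate 3 alone. PER2 had r = 0.0035 (exact permutation p = 0.993, adjusted 0.993; rho −0.26, p = 0.658, adjusted 0.658), and 0.18 without them. PER3 had r = 0.48 (exact permutation p = 0.354, adjusted 0.677; rho 0.37, p = 0.497, adjusted 0.597), and −0.14 without them. After group means were subtracted, r was −0.54 for NR1D1, 0.04 for DBP, 0.01 for PER2 and 0.49 for PER3.

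**Figure D4:**
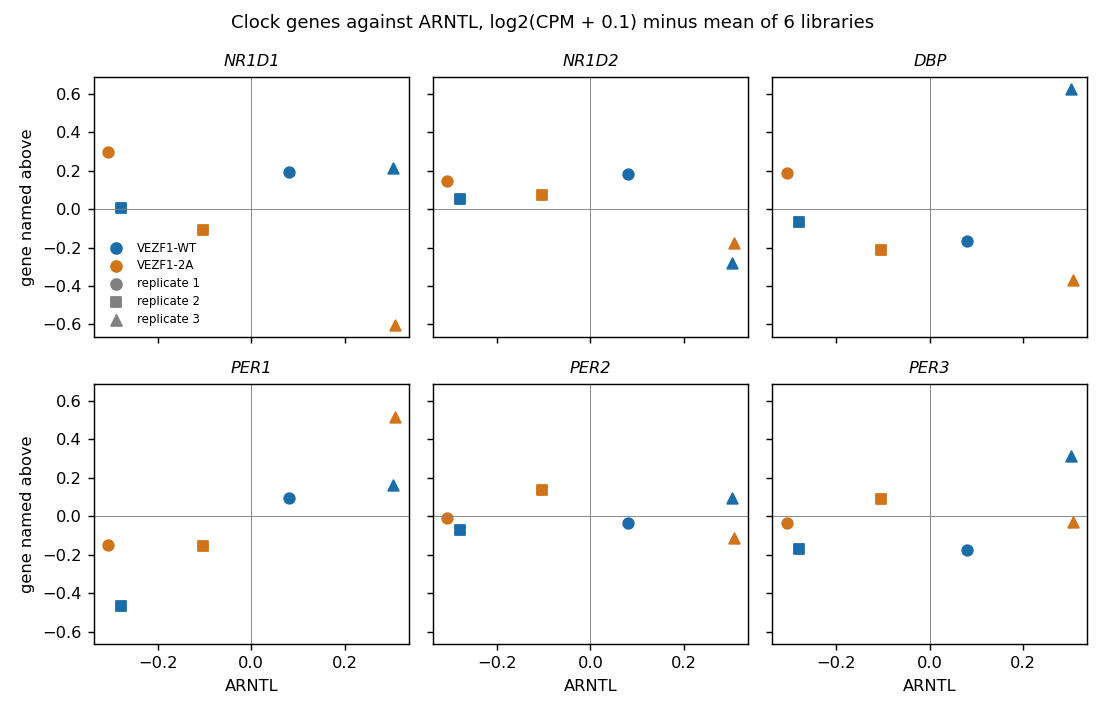
Log2(CPM + 0.1) minus the mean of 6 libraries for each phase-opposed gene (vertical axis) against ARNTL (horizontal axis), with VEZF1-WT in blue, VEZF1-2A in orange and replicates by shape. Both triangles (replicate 3) lie at the right, high in ARNTL, where NR1D2 is low, NR1D1 and DBP are split between the groups, and PER1 is high.

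The spread among libraries was set beside the counting error that their reads alone would give. For ARNTL the coefficient of variation was 19.7% against 10.03% from counting, for PER1 24.8% against 10.7%, for NR1D1 21.4% against 10.7% and for DBP 30.8% against 18.6%. CRY2 was the one gene of the 10 that varied less than counting gives, 2.44% against 6.93%. The other 5 genes varied by 6.67% to 13.5%, against 3.05% to 8.13% from counting. These values cover counting error only, and if read pairs were counted as 2, as the excess of even counts leaves possible, the counting part would be 14.2% for ARNTL, 15.1% for PER1 and 26.3% for DBP.

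Libraries numbered 3 deviated from their group means together (correlation 0.57), whereas those numbered 1 and 2 correlated at 0.15 and 0.23. VEZF1-WT replicate 2 and VEZF1-2A replicate 1 correlated at 0.35, so a pairing of numbers 1 and 2 is not established. The number itself was tested in a fit with group and number as terms, chosen after the data were seen. None of the 10 clock genes differed by replicate number at an adjusted p-value under 0.05, compared with 5.52% of all genes. PER1 came closest (adjusted p = 0.202, edgeR), followed by ARNTL (adjusted p = 0.295) and NR1D2 (adjusted p = 0.325). Among the other clock genes BHLHE40 and HLF passed. HLF was at 117 and 114 CPM in replicate 3 of VEZF1-WT and VEZF1-2A and at 81.1 to 92.6 CPM in the other 4 libraries (adjusted p = 0.00115), and BHLHE40 was at 43.1 and 50.5 CPM against 55.1 to 61.5 CPM (adjusted p = 0.00817). What the replicate number stands for is not given in the labels. With the replicate number as a block, the comparison of VEZF1-WT with VEZF1-2A called 6 genes of 19111 (CCL20, OR2I1P, UBD, GABBR1, IGFBP1 and LCN2, named after their values were seen), against 0 without it, and none of the 10 clock genes.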

How the data were processed

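The authors deposited whole-number read counts per gene, without normalization, on GRCh38 per the labels; the aligner, counting program, annotation and strand setting are not given in the sources used here. Libraries were made with an mRNA kit. Of 59613 lines, 5 (a broken ANK2 entry) were left out. Even numbers made up 65.7% to 67.5% of each library's counts between 11 and 100. Counts were tested in R 4.3.3 with edgeR 4.0.16 (filterByExpr, minimum count 10, minimum total 15; TMM; glmQLFit with group alone; two-sided), with Benjamini-Hochberg adjustment over 19111 genes. CPM uses TMM-scaled library sizes; RPKM divides CPM by exon length in kilobases; SDs are of CPM or RPKM. The exact permutation tests and correlations used log2 of CPM plus 0.1 in Python 3.11.15 (scipy 1.17.1). The fit was first tested on simulated data.

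Groups and replicate numbers came from the sample titles. Same-numbered libraries of the 2 groups correlated in their deviations from the group means at 0.15, 0.23 and 0.57 (15221 genes), each over 0.1, so the numbers were taken to pair them. Only the replicate block and the sign-flip tests used this pairing. The main fit and the exact permutation tests between groups left it out. Differently numbered libraries gave −0.48 to 0.35, the highest for VEZF1-WT replicate 2 with VEZF1-2A replicate 1, and the labels do not say what the numbers mark. Deviations within a group cancel out, so these correlations depend on one another and do not establish a pairing of numbers 1 and 2. The 10 genes and all gene lists were chosen with earlier results of these data known. A gene of the list of other clock genes is not reported here and was left out of its counts. Genes named are the 10, other clock genes with an unadjusted p-value under 0.05 or separate groups, the most abundant per role, VEZF1, and genes sharing exons with the 10; any further gene was chosen after its values were seen. Alternatives were other scalings (DESeq2 1.42.0 size factors, library size), DESeq2, limma 3.58.1 voom, other filters, a replicate block, a G2 and mitosis score as covariate, counts halved, overlapping genes left out, a pseudocount of 1 and each library left out. ChIP-seq was not analysed here.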

Additional observations from a re-analysis of the deposited data

How the results depend on the processing

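None of the 10 clock genes had an adjusted p-value under 0.05 under any alternative run. Genes called at that threshold over the whole table numbered 0 with edgeR (408 at an unadjusted p-value under 0.05) and 0 with limma voom, 3 with DESeq2 (OR2I1P, UBD and GABBR1), 16 with no filter on low counts, where 38745 genes were tested, and 6 with the replicate block (825 unadjusted). The block brought BHLHE40, CD68 and COL1A1 under an unadjusted p-value of 0.05 and changed no other call of a listed gene or ratio; its test of the ratios was chosen after the data were seen. The sign of near-zero fold changes turned. PER3 was −0.0031 with library size alone, −0.00091 with limma voom, −0.0093 with the replicate block and −0.0084 with the G2 and mitosis score as covariate. With that covariate ARNTL was −0.0048, PER2 0.00077 and NR1D2 0.0034, and PER2 was 0.0040 with no filter. The correlation of PER2 with ARNTL was −0.00078 with a pseudocount of 1 and −0.17 with library size alone. The cause was not tested.

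With each library left out in turn, 0 to 1 clock genes had an unadjusted p-value under 0.05. This was NR1D1 without VEZF1-2A replicate 1, when 472 of 19817 genes had one. Between 0 and 2 had separate groups: CLOCK without VEZF1-WT replicate 2, PER3 without VEZF1-WT replicate 3, and NR1D1 and DBP without VEZF1-2A replicate 1. In those runs 15.5% to 17.3% of all genes were separate. Log2 fold changes ranged from −0.075 to 0.27 for ARNTL, −0.27 to 0.13 for PER1, −0.069 to 0.061 for PER2, −0.19 to 0.088 for PER3, −0.061 to 0.064 for CRY1, −0.14 to 0.10 for NR1D2, 0.05 to 0.49 for NR1D1 and 0.0026 to 0.54 for DBP. Differences in the log2 ratio to ARNTL ranged from −0.20 to 0.56 for NR1D1, −0.36 to 0.17 for NR1D2, −0.10 to 0.49 for DBP, −0.31 to 0.052 for PER2 and −0.28 to 0.026 for PER3. Correlations with ARNTL ranged from −0.73 to 0.21 for NR1D1, −0.85 to 0.51 for DBP, −0.95 to −0.62 for NR1D2, 0.85 to 0.94 for PER1, −0.35 to 0.46 for PER2 and 0.053 to 0.62 for PER3. That of PER1 kept its sign but lost its unadjusted call without VEZF1-WT replicate 1 or 2 (exact permutation p = 0.05 each) or VEZF1-2A replicate 3 (p = 0.0667). With overlapping genes left out only ARNTL, CRY2 and NR1D2 could be tested, and at a minimum of 1 CPM in 3 libraries DBP could not. Depth limits DBP most, with 19 to 70 reads a library.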
